A study of Mus musculus with 12 samples.

Results

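Myotubes separated from converted fibroblast cultures were compared with unseparated mixed cultures, in wild-type (WT) cells. The comparison takes 4 of the 12 libraries of the series, 2 of the mixed culture and 2 of purified myotubes, and 16520 of 36229 genes, those with a mean normalised read count of at least 10 over the 4 libraries. Every cell was a C57BL/6 mouse embryonic fibroblast with Rb1 and Kdm5a intact, and all of them had been driven toward skeletal muscle with an adenovirus that carries MyoD. They were kept with virus for 24 h in a medium that held 2% horse serum and insulin at 10 µg/ml, then changed to fresh medium for another 72 h. The mixed libraries came from 1.7 µg of total RNA, depleted of ribosomal RNA and read on a HiSeq for 40 bases. For the purified libraries the cells were trypsinised, myotubes were separated by size under gravity, and these recovered for 24 h in medium that had been kept on other fibroblasts for 48 h. Their libraries were made from 1.5 µg of RNA by repeated oligo(dT) selection, with 15 cycles of PCR, and read on a GAII for 36 bases. Separation and recovery, RNA selection, PCR and sequencer thus all change together between the groups and cannot be told apart.

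MyoD is a basic helix-loop-helix factor that binds E-boxes in muscle genes and switches a fibroblast to the muscle programme. The converted cells turn on myogenin, fuse through the membrane proteins myomaker and myomixer, leave the cell cycle and assemble sarcomeres whose embryonic isoforms are later replaced. Oligo(dT) selection keeps RNAs with a poly(A) tail, whereas ribosomal depletion also keeps RNAs without it, so those RNAs are described apart from messengers.

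The mixed libraries held 16458373 and 18469731 reads and the purified libraries 9549351 and 14116839. Library values are given throughout in the order replicate 1, replicate 2, as read counts scaled by the library's size factor, and changes are log2(value + 1) in purified minus mixed with its standard error (SE, n = 2 libraries per group). The labels do not say whether replicates came from separate cultures, so p-values measure only the spread between these libraries. The median absolute log2 difference between replicates was 0.177 in mixed and 0.141 in purified. Rise and fall are used where limma's two-sided test gave a Benjamini-Hochberg adjusted p under 0.05. By that rule 5606 genes rose (33.9%) and 5590 fell (33.8%), 67.8% of genes tested, with a median change of 0.0011 over all genes. The libraries of the groups did not overlap for 84.4% of genes, so a call or a lack of overlap is common here, and the sizes and the counts within lists carry more of the description. A change of at least 2-fold was seen for 3197 of the genes that rose and 3062 of those that fell. Gene lists are described by counts and medians, to be read against these shares. Fewer cells of a type and less RNA per cell cannot be told apart in bulk samples.

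RNAs without a poly(A) tail were far lower in the purified libraries. They took 15.3% and 15.8% of the reads of the mixed libraries and 0.155% in each purified library. Of 180 such RNAs tested 154 fell, 4 rose and 22 did not pass, with a median change of -4.38. With the 34 that had no read in either purified library set to the bound that 3 reads allow, the median was -4.04. Genes were kept by their mean over the 4 libraries, so RNAs nearly absent from the purified libraries entered through the mixed libraries alone. Such RNAs could only fall or not pass, which tilts the counts and medians here and by class. The shares of reads do not depend on that filter. The mitochondrial large ribosomal RNA mt-Rnr2 held 13.8% and 14.6% of the mixed reads and 0.0623% and 0.0630% of the purified reads. That is a change of -7.98 ± 0.06 (limma adjusted p = 1.55e-13). Messengers took 77.2% and 76.8% of the mixed reads and 91.0% and 91.2% of the purified reads.

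Every class of these RNAs fell on balance, by very different amounts. Of 117 small nucleolar RNAs, which guide modification of ribosomal RNA, 100 fell, with a median of -4.77 (-4.20 at the bound). All 14 small Cajal body RNAs fell (median -6.21), and of 5 spliceosomal small nuclear RNAs 4 fell and 1 rose (median -7.09, or -5.94 at the bound). The 14 mitochondrial transfer RNAs moved least among the small RNAs, with 11 falls, 2 rises and a median of -1.45. Replication-dependent histone messengers, which usually end in a stem-loop in place of a poly(A) tail, fell for 17 of 19 tested (of 66 listed) with a median of -2.10.

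The largest falls were those of RNA polymerase III transcripts. Vaultrc5, the RNA of the vault particle, read 14338 and 10218 in the mixed libraries and 0 and 0 in the purified libraries. With 3 reads over the group as the floor, it was at least 5441-fold lower in the purified libraries. Rny1, a small cytoplasmic RNA bound by the Ro protein, went from 6589 and 5345 to 0 and 0, at least 2654-fold lower. A second Ro-bound RNA, Rny3, went from 6466 and 4251 to 0 and 1.24, and the mixed over purified ratio was 7108 (95% counting interval 1275 to 280762). Both rest on 1 read or none in the purified libraries. Rmrp, the RNA of the mitochondrial RNA processing nuclease, went from 55318 and 53989 to 16.7 and 12.4, a change of -11.79 ± 0.12 (limma adjusted p = 2.19e-12), and its exons overlap those of Ccdc107. Rn7sk, the RNA that holds the elongation factor P-TEFb inactive, read 31658 and 26488 in the mixed libraries and 22.3 and 13.7 in the purified libraries. Among the nucleolar RNAs Snord17 went from 6099.6 and 5519 to 1.86 and 0, with a ratio of 7777 (95% counting interval 1395 to 307185). Of the 4 that rose, the naming rule takes the mitochondrial transfer RNA mt-Tt, from 95.7 and 68.2 to 169 and 164, a change of 1.03 ± 0.24 (limma adjusted p = 0.00312). The other 3, named after their values were seen, changed more. The transfer RNA mt-Te went from 14.4 and 50.1 to 76.3 and 96.9 (1.63 ± 0.51, limma adjusted p = 0.0152), Gm23865, whose exons overlap Odf2, from 2.39 and 5.33 to 40.9 and 18.6 (2.63 ± 0.65, limma adjusted p = 0.00467), and Gm24601 from 1.2 and 0 to 39.1 and 14.9, with 1 read in the mixed libraries. The purified libraries of all 4 lay above both mixed libraries, and only 2 RNAs passed as higher without WT mixed replicate 1 or without WT purified replicate 1.

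**Figure D1:**
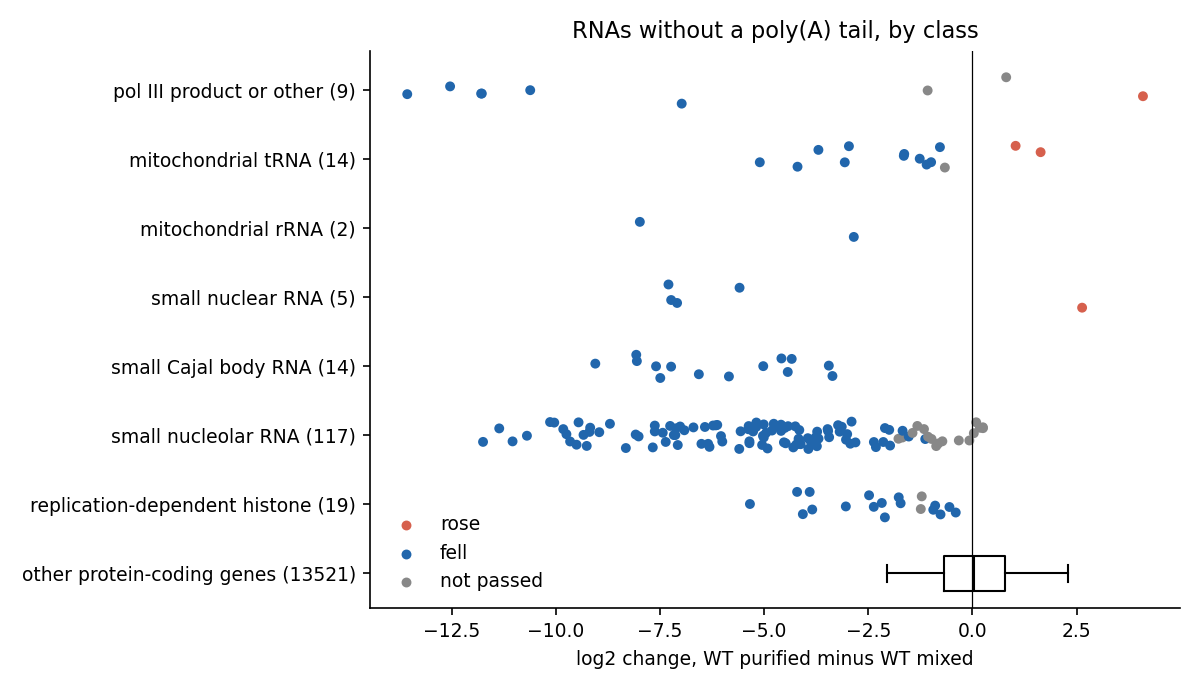
Log2 change, purified minus mixed, of each RNA without a poly(A) tail, by class with the number tested, coloured by call, and a box of the other protein-coding genes (median, quartiles and whiskers at the 5% and 95% points). Most points lie far left of the box: 154 of 180 RNAs fell and 4 rose.

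The histone messengers are shown with the 3′ stem-loop that can form in place of the tail, because the fall differed between genes that carry it. The sequences are from GENCODE M21 transcripts, 5′ to 3′, with the stem in capitals.
Hist1h3e: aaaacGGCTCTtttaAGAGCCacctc
Hist1h1e: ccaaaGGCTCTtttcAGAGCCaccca
Hist1h1d: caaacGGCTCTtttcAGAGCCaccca
Hist1h4h: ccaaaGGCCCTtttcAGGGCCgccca
Hist1h1c: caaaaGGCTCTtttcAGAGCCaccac
Hist1h4i: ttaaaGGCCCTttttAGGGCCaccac
A stem-loop of this form was found in the transcript of 13 of the 19 histone genes tested, of which 12 fell, and 5 of the other 6 fell as well. The annotated transcript ran on past the stem-loop, by 46 bases in Hist1h4h, 840 in Hist1h1c and 4884 in Hist1h1d. The share of messengers that end at the stem-loop was not tested. The linker histone Hist1h1e read 281 and 305 in the mixed libraries and 33.5 and 36.0 in the purified libraries, a change of -3.04 ± 0.23 (limma adjusted p = 9.97e-07). Hist1h1d, another linker histone, went from 651 and 548 to 128 and 149, a change of -2.10 ± 0.16 (limma adjusted p = 8.77e-07). Hist1h1c was the most abundant and moved less, from 5475 and 5648 to 3081 and 2897 (-0.90 ± 0.06, limma adjusted p = 6.96e-07). Both purified libraries lay under both mixed libraries for all 3, and exons of Hist1h1e overlap another gene. Hist1h3e, Hist1h4h and Hist1h4i, shown for the spread among core histones and chosen after their values were seen, changed by -4.07, -1.72 and -0.77. That of Hist1h3e rests on 5.98 and 39.4 in the mixed libraries and 0 and 0 in the purified libraries, so its size is uncertain. Among all carriers of the stem-loop that fell, changes ran from -4.21 (Hist1h4d) to -0.55 (Hist3h2a). The smallest fall in the list was that of Hist1h2bc (-0.40), in whose transcript the stem-loop was not found.

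Among messengers the change moved with base composition. Of 738 genes with a GC content of 30 to 40%, 7.45% rose and 73.4% fell, with a median change of -0.94. Of 2583 genes with 55 to 60% GC, 58.3% rose and 11.9% fell, with a median of 0.63. Spearman's rho between the change and GC content was 0.46 across 13514 messengers, which are not independent replicates. The same relation was 0.68 across 13386 messengers in cells lacking both Kdm5a and Rb1 (DKO), whose libraries were made by the same 2 methods. Between replicates of a group the medians of the GC classes stayed within 0.032 of 0. Length, taken as all annotated exonic bases of a gene, moved with the change more weakly (rho = -0.13). The median was -0.49 for messengers of 12000 such bases or more. How much of a given gene's change comes with GC content or length was not tested. As an alternative added after seeing the data, each library's trend on GC content was removed, after which 31.2% of 15507 genes rose and 32.5% fell. Its values are given beside most lists, beside the named genes whose call or direction it turned, and beside some others.

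**Figure D2:**
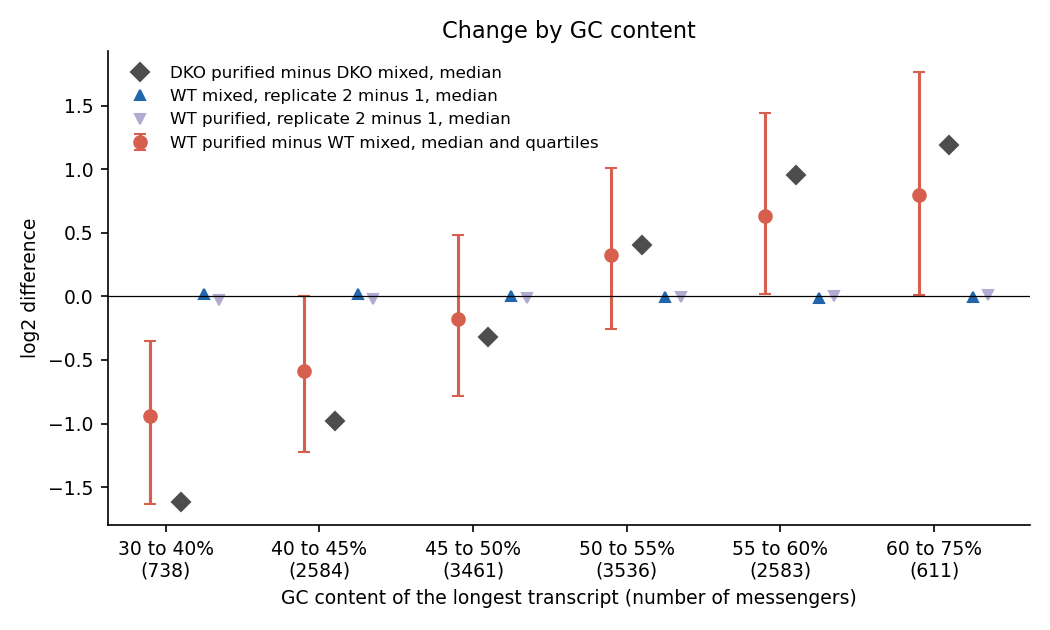
Median log2 change, purified minus mixed, of messengers grouped by the GC content of their longest transcript, for WT (circles, with bars over the quartiles) and DKO (diamonds), and the median difference between WT replicates (triangles). Medians run from -0.94 to 0.79 in WT, while the differences between replicates stay near 0.

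Myod1, Myog and Mymk, which start the muscle programme, carry it on and fuse its cells, were higher in purified myotubes. Myod1 (ENSMUSG00000009471) read 5852 and 6886 in the mixed libraries and 12978 and 13074 in the purified libraries, a change of 1.04 ± 0.08 (limma adjusted p = 8.04e-07). Reads of the viral MyoD and of the cell's own gene cannot be told apart. Myog (ENSMUSG00000026459), the myogenin gene that acts next in differentiation, went from 16127 and 18252 to 35029 and 30136, a rise of 0.92 ± 0.08 (limma adjusted p = 3.41e-06). Mymk (ENSMUSG00000009214), which encodes the fusion protein myomaker, went from 11839 and 12358 to 23499 and 23260.1, a rise of 0.95 ± 0.06 (limma adjusted p = 1.4e-07). The groups did not overlap for any of these, and with the GC trend removed the rises were 0.28, 0.39 and 0.41, all past the threshold.

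Of the regulators and fusion genes listed 29 of 34 were tested, and 15 rose, 12 fell and 2 did not pass, with a median log2 change of 0.27. With the GC trend removed 12 rose and 13 fell, with a median of -0.04, so the median turned. Cdh15, the M-cadherin of muscle precursors, read 4622 and 4619 in the mixed libraries and 22364 and 21640.1 in the purified libraries, a rise of 2.25 ± 0.06 (limma adjusted p = 4.65e-10). Mef2d, a partner of MyoD family factors, went from 787 and 891 to 2647 and 2626 (1.65 ± 0.08, limma adjusted p = 5.75e-08). Six4, a homeodomain factor that acts upstream of the MyoD family, fell from 1378 and 1475 to 465 and 414 (-1.70 ± 0.10, limma adjusted p = 1.63e-07). The list thus moved in both directions. Exons of Mef2d overlap another gene. Chosen after its values were seen, Mymx, which encodes the second fusion protein myomixer, changed by -0.51, against the direction of Mymk.

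**Figure D3:**
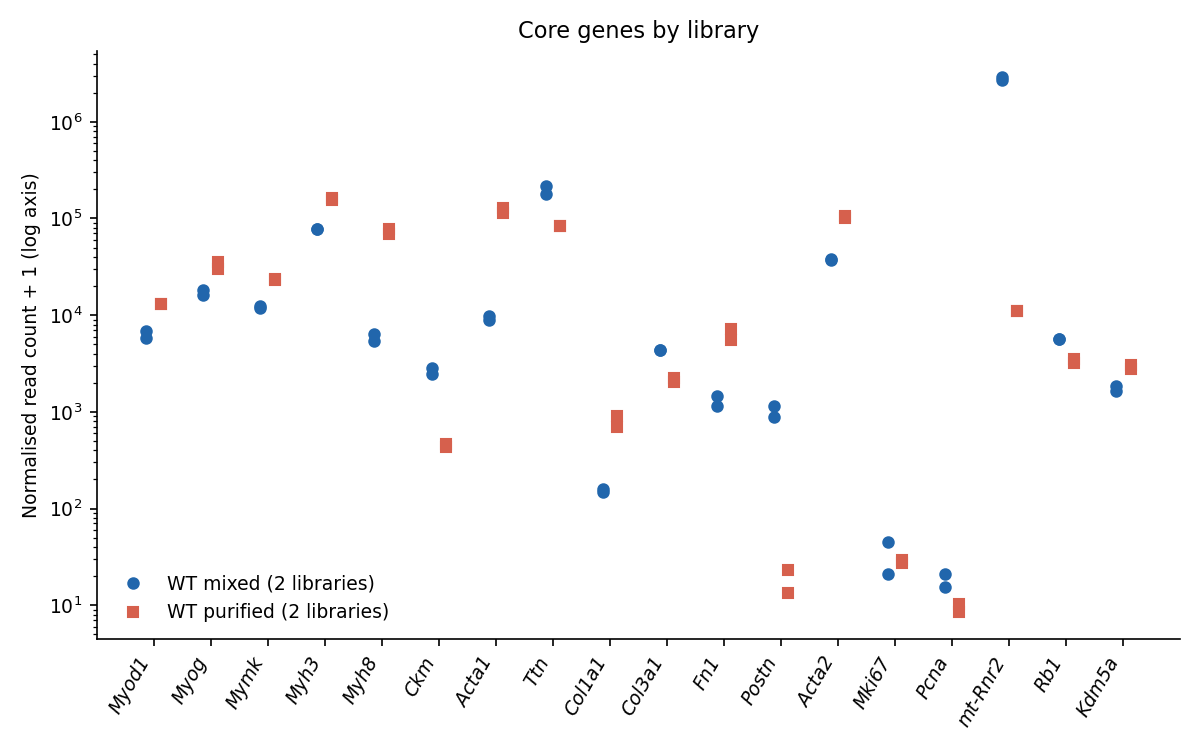
Normalised read count + 1 (log axis) of the core genes in each of the 4 WT libraries, with 2 points for mixed and 2 for purified. Acta1 and Myh8 stand over 10-fold apart between groups, mt-Rnr2 over 100-fold, while Mki67 and Pcna overlap or lie close.

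The sarcomere list rose more often than it fell. Of its members 54 of 55 were tested, and 34 rose, 11 fell and 9 did not pass, with a median log2 change of 0.53; with the GC trend removed 28 rose and 15 fell, with a median of 0.26. Skeletal actin, Acta1 (ENSMUSG00000031972), read 8960.3 and 9877 in the mixed libraries and 114613 and 129682 in the purified libraries. Every purified library was over 10 times every mixed library, a change of 3.70 ± 0.07 (limma adjusted p = 1.39e-10). Perinatal myosin heavy chain, Myh8 (ENSMUSG00000055775), went from 5433 and 6317 to 78148 and 69138, a rise of 3.65 ± 0.08 (limma adjusted p = 2.47e-10). Embryonic myosin, Myh3 (ENSMUSG00000020908), was already the highest of its family and went from 77084 and 76912 to 163792 and 154839, a rise of 1.05 ± 0.06 (limma adjusted p = 9.11e-08; 0.59 with the GC trend removed). Actn2, the alpha-actinin that crosslinks actin at the Z-disc, went from 5671 and 6059.9 to 45237 and 44063 (2.93 ± 0.06, limma adjusted p = 1.39e-10). Xirp1, an actin-binding protein of growing and injured sarcomeres, went from 522 and 572 to 3211 and 3269 (2.57 ± 0.08, limma adjusted p = 2.73e-09). In each of these the purified replicates lay within a narrow range far above the mixed replicates.

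The myosin and actin isoforms did not move as blocks. Shares are per kilobase of all annotated exonic bases of a gene, 6057 for Myh3 and 11772 for Myh8, so their sizes depend on the annotation. Myh3 took 82.1% and 81.9% of the signal of 6 striated myosin heavy chains in the mixed libraries. In the purified libraries it took 77.0% and 78%. The share of Myh8 went from 2.98% and 3.46% to 18.9% and 17.9%. The share of Myh1, an adult fast isoform, went from 14% and 13.6% to 3.0% and 2.87%. Thus the perinatal chain passed the adult fast chain in order, and the replicates of each group lay close together. Myh7, the slow and cardiac chain, stayed under 1% in all 4 libraries, though its share went from 0.276% and 0.378% to 0.780% and 0.846%. Myh2 and Myh4 also stayed under 1%. Among actins, the cardiac isoform Actc1 went from 64.4% and 66.2% to 53.4% and 49.9% of the per-kilobase sum, and Acta1 from 9.10% and 9.22% to 28.8% and 31.8%. Actc1 itself still rose by 1.63, as the sum was higher in the purified libraries. Isoforms and the genes named in this paragraph beyond Acta1, Myh3 and Myh8 were chosen as families after values were seen, and Myh1 and Myh7 share exons with Myhas and Gm29015 and Gm31251 and Mhrt.

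**Figure D4:**
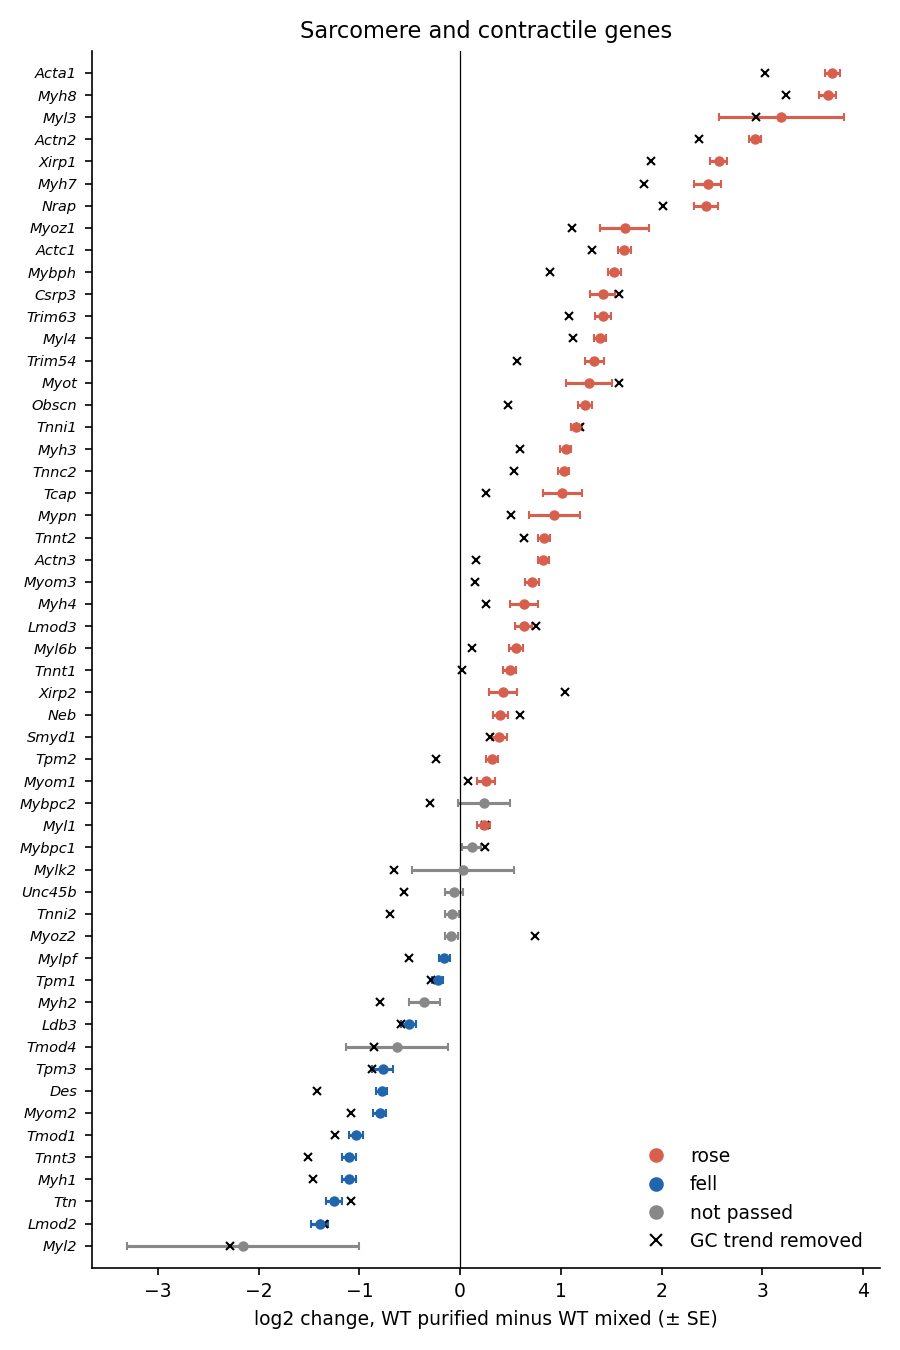
Log2 change, purified minus mixed, of each sarcomere gene tested, with bars of 1 SE, ordered by size and coloured by call, and the value with the GC trend removed (crosses). The 34 genes that rose extend to 3.70 and the 11 that fell to -1.39.

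The giant spring protein titin went the other way. Ttn (ENSMUSG00000051747) read 216980.0 and 181022 in the mixed libraries and 83253 and 83606 in the purified libraries, a change of -1.25 ± 0.08 (limma adjusted p = 2.94e-07). With the trend on exonic length removed the value was 0.09 (limma adjusted p = 0.219), so the fall did not hold there. Ttn has 116825 exonic bases, far beyond the 12000 at which the longest class of messengers starts. That class had a median change of only -0.49, and how well the trend describes Ttn was not tested. Ttn shares exons with Gm13938. Chosen after their values were seen, the fast troponin T gene Tnnt3 fell from 18208 and 18017 to 8939 and 7962 (-1.10), the slow troponin I gene Tnni1 rose from 31655 and 30802 to 71378 and 67708 (1.15), the desmin gene Des changed by -0.78 and the actin nucleator Lmod2 by -1.39. Troponins and filament genes therefore hold both directions.

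Promoters of 3 muscle genes that rose and of Ppp1r3a, which fell, are shown with the E-box CAGCTG, a form that MyoD family factors bind. All of those shown carry it, unlike most muscle-list genes searched, so they do not stand for their direction. Sequences are from RefSeq on GRCm38.p6, 250 bases before to 50 after the start, 5′ to 3′ on the gene's strand, with each CAGCTG in capitals.
Acta1: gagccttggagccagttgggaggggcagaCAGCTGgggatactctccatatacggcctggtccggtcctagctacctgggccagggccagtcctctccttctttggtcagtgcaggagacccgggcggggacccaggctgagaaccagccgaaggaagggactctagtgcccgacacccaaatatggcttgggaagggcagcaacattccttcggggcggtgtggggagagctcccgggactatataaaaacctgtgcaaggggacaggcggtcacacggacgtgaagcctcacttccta
Chrna1: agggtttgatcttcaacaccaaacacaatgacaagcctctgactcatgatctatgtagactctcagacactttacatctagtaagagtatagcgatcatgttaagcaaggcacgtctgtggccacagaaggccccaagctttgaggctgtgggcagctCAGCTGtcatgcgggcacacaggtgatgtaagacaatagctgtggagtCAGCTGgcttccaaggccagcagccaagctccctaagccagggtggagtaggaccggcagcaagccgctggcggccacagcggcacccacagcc
Cacna1s: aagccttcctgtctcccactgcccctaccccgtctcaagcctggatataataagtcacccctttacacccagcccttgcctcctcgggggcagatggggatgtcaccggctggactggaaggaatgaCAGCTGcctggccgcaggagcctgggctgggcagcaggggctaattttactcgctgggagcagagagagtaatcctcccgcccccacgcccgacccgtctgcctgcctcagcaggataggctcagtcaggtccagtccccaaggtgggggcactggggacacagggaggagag
Ppp1r3a: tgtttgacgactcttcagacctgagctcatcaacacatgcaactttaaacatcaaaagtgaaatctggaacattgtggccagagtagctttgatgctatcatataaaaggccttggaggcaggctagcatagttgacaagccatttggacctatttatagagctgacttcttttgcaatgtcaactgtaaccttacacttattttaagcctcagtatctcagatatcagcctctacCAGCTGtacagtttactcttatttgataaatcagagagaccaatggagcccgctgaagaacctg
These lie at chr8:123894726-123895025 (minus strand), chr2:73580289-73580588 (minus), chr1:136052561-136052860 (plus) and chr6:14755225-14755524 (minus). The motif starts at -221 in Acta1, at -92 and -44 in Chrna1, at -123 in Cacna1s and at -14 in Ppp1r3a, counted from the start site. It reads the same on both strands. Among muscle-list genes with a promoter in the table it was present for 21 of 55 that rose (38.2%), 20 of 42 that fell (47.6%) and 3 of 11 that did not pass (27.3%). It was present in any window of 19.1% of the genes tested that had a promoter. Of all windows searched, which left out those of a chromosome, 16.3% held it. The motif thus occurred in muscle genes of both directions, and a match describes the letters, not binding.

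Channel and receptor genes of excitation rose beside falls of other parts of the same machine. All 24 excitation-contraction coupling genes listed were tested, and 12 rose, 10 fell and 2 did not pass, with a median log2 change of 0.22; with the GC trend removed 8 rose and 13 fell, with a median of -0.33, which turns the median. Cacna1s, the voltage sensor of the transverse tubule, read 1372 and 1458 in the mixed libraries and 6733 and 6605 in the purified libraries, a rise of 2.24 ± 0.07 (limma adjusted p = 1.78e-09). Ryr1, the calcium release channel it opens, went from 4585 and 4285 to 11808 and 12167 (1.44 ± 0.06, limma adjusted p = 1.72e-08; 0.72 with the GC trend removed). Jph1, which tethers tubule to sarcoplasmic reticulum, fell from 2326 and 2542 to 454 and 512 (-2.33 ± 0.10, limma adjusted p = 1.26e-08). Cacna2d1, an accessory subunit of the voltage sensor, fell from 8275 and 8331 to 2899 and 3006 (-1.49 ± 0.06, limma adjusted p = 1.2e-08; -0.75 with the GC trend removed). Hence sensor and release channel rose while a tether and an accessory subunit fell, with no overlap between groups. Exons of Cacna1s, Jph1 and Ryr1 overlap other genes.

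At the neuromuscular junction 14 of 15 listed genes were tested, and 10 rose and 4 fell, with a median log2 change of 0.30; with the GC trend removed 5 rose and 6 fell, with a median of -0.08, and in a fit over all 12 libraries 6 rose. Chrna1, the acetylcholine-binding subunit of the receptor, read 6871 and 5862 in the mixed libraries and 42449.9 and 39978 in the purified libraries, a rise of 2.70 ± 0.08 (limma adjusted p = 1.2e-09). Agrn, the agrin that clusters receptors, went from 227 and 323 to 1295 and 1393 (2.30 ± 0.15, limma adjusted p = 3.72e-07). Its receptor Lrp4 went from 3344 and 3062 to 6794 and 7206 (1.13 ± 0.07, limma adjusted p = 1.92e-07; 0.61 with the GC trend removed). Ligand, agrin receptor and acetylcholine receptor thus moved the same way. Prkar1a, a regulatory subunit of protein kinase A, fell from 39021 and 36294 to 14471 and 13909 (-1.41 ± 0.06, limma adjusted p = 1.56e-08; -1.10 with the GC trend removed).

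The dystrophin complex, which links the cytoskeleton to the matrix, fell on balance. All 16 genes listed were tested, and 5 rose and 11 fell, with a median log2 change of -0.53; with the GC trend removed 3 rose and 11 fell, with a median of -0.57, and in the fit over all 12 libraries 3 rose. Dmd, dystrophin itself, read 17836 and 17325 in the mixed libraries and 2262 and 2147 in the purified libraries, a change of -3.0 ± 0.06 (limma adjusted p = 1.43e-10). Sgcd, a sarcoglycan, changed by -1.64 ± 0.07 (limma adjusted p = 1.08e-08; -0.65 with the GC trend removed), and Dtna, alpha-dystrobrevin, by -1.40 ± 0.07 (limma adjusted p = 5.75e-08), with exons that overlap another gene. Dag1, whose product dystroglycan is the complex's matrix receptor, rose from 2161 and 2220.4 to 8603 and 9498 (2.04 ± 0.07, limma adjusted p = 3.47e-09). The transmembrane receptor and its intracellular partner therefore moved in opposite directions.

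Genes of muscle fuel use fell on balance. All 25 genes listed were tested, and 7 rose, 16 fell and 2 did not pass, with a median log2 change of -0.66; with the GC trend removed 4 rose and 18 fell, with a median of -0.85. Ckm (ENSMUSG00000030399), muscle creatine kinase and a usual marker of mature myotubes, read 2827 and 2456 in the mixed libraries and 463 and 432 in the purified libraries. Both purified libraries lay under both mixed libraries, a change of -2.56 ± 0.10 (limma adjusted p = 7.57e-09), and its exons overlap those of A930016O22Rik. Ppp1r3a, which targets phosphatase 1 to glycogen in muscle, fell from 3616 and 3455 to 233 and 179 (-4.11 ± 0.12, limma adjusted p = 1.78e-09). Ppp1r3c, another glycogen-targeting subunit, rose from 601 and 757 to 4642 and 4279.8 (2.72 ± 0.11, limma adjusted p = 9.88e-09). Phka1, a subunit of muscle phosphorylase kinase, changed by -1.76 ± 0.07 (limma adjusted p = 1.28e-08). The glycogen-targeting subunits thus moved in opposite directions.

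Nuclear genes of oxidative phosphorylation moved little and both ways. All 76 listed were tested, and 25 rose, 31 fell and 20 did not pass, with a median log2 change of -0.04; with the GC trend removed 16 rose and 36 fell, with a median of -0.24, and over all 12 libraries 15 rose and 18 fell. Ndufa9 of complex I changed by 0.88 ± 0.07 (limma adjusted p = 2.07e-06), and Cox4i1 of complex IV by 0.90 ± 0.06 (limma adjusted p = 3.79e-07), which became 0.18 (adjusted p = 0.0229) with the GC trend removed. Ndufc2 of complex I fell by 1.18 (adjusted p = 4.83e-07). Exons of Ndufa9 and Cox4i1 overlap other genes.

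Messengers made in the mitochondrion, which carry short poly(A) tails, rose on balance. Of 13 listed 7 were tested, as the other 6 were listed at 0 in all 4 libraries, and 6 rose and 1 fell, with a median of 1.44 (2.47 with the GC trend removed). The complex I subunits mt-Nd4, mt-Nd2 and mt-Nd5 changed by 2.59, 2.12 and 1.44, and mt-Cytb of complex III by 1.80, the complex I genes with overlapping exons. Their SEs were 0.07, 0.06, 0.06 and 0.06, and all passed in limma. The 4 named messengers rose while the mitochondrial ribosomal RNA fell, both in the same libraries with different RNA selection.

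Cytosolic ribosomal protein genes fell on balance. Of 79 listed 75 were tested, and 8 rose, 34 fell and 33 did not pass, with a median log2 change of -0.46; with the GC trend removed 4 rose and 41 fell, with a median of -0.48. The 4 with the smallest p, Rpsa (-5.32), Rpl10 (-3.82), Rps3 (-1.45) and Rpl5 (-1.37), all fell, and the exons of each overlap a small nucleolar RNA gene. Of 23 ribosomal protein genes that overlap such a gene 17 fell and 1 rose (median -0.92), and of the other 52, 17 fell and 7 rose (median -0.35). The falls of small nucleolar RNAs thus move with those of the overlapping genes, and the part of shared reads was not tested.

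Sterol synthesis genes fell for the larger part. Of 24 listed 23 were tested, and 5 rose, 13 fell and 5 did not pass, with a median log2 change of -0.31; with the GC trend removed 4 rose and 13 fell, with a median of -0.75. The synthetic enzymes Hsd17b7 and Nsdhl changed by -1.70 ± 0.09 (limma adjusted p = 6.03e-08) and -1.62 ± 0.09 (limma adjusted p = 8.65e-08). Insig1, which holds the sterol sensor in the endoplasmic reticulum, changed by -1.69 ± 0.10 (limma adjusted p = 1.43e-07). Srebf2, the factor that drives these enzymes, rose by 1.50 ± 0.09 (limma adjusted p = 2.11e-07; 0.78 with the GC trend removed), while the enzymes named here fell.

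Fibroblast and matrix genes were not uniformly lower in the purified myotubes. Of the matrix genes 46 of 49 were tested, and 24 rose, 12 fell and 10 did not pass, with a median log2 change of 0.65; with the GC trend removed 22 rose and 16 fell, with a median of 0.30. Col1a1 (ENSMUSG00000001506), a chain of fibrillar collagen I, rose from 158 and 147 to 688 and 909 (2.37 ± 0.16, limma adjusted p = 3.72e-07). Fn1 (ENSMUSG00000026193), fibronectin, rose from 1161 and 1452 to 5466 and 7152 (2.27 ± 0.13, limma adjusted p = 1.24e-07). Col3a1 (ENSMUSG00000026043), the chain of collagen III, fell from 4379 and 4399 to 2039 and 2249 (-1.04 ± 0.07, limma adjusted p = 4.85e-07; -1.38 with the GC trend removed). The main fibrillar chains thus separated, with no overlap between groups for any. Postn (ENSMUSG00000027750), the matricellular protein periostin, fell furthest among these, from 887 and 1158 to 22.3 and 12.4 (-5.84 ± 0.28, limma adjusted p = 3.76e-08). Tnc, tenascin C, rose from 232 and 287 to 8763 and 10013 (5.18 ± 0.11, limma adjusted p = 1.84e-10), and Col4a2, a basement membrane chain, rose from 1399 and 1452 to 15312 and 15961 (3.45 ± 0.06, limma adjusted p = 9.08e-11). Its partner Col4a1 changed by 2.40 and the elastic fibre protein Mfap4 by -2.41. Exons of Col3a1, Fn1, Tnc, Col4a1, Col4a2 and Mfap4 overlap other genes, Col4a1 and Col4a2 each other.

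Surface and identity genes of fibroblasts fell more often. Of 19 of 22 listed genes tested, 6 rose, 11 fell and 2 did not pass, with a median log2 change of -0.44; with the GC trend removed 7 rose and 9 fell, with a median of -0.27. S100a4 changed by -2.62 ± 0.11 (limma adjusted p = 1.49e-08), with overlapping exons, and the mesenchymal homeobox gene Prrx1 by -1.28 ± 0.07 (limma adjusted p = 6.59e-08; -0.80 with the GC trend removed). Pdgfrb, a receptor of platelet-derived growth factor, rose from 303 and 362 to 1457 and 1815 (2.29 ± 0.13, limma adjusted p = 1.2e-07), and the filament gene Vim rose by 1.23 ± 0.07 (limma adjusted p = 8.15e-08). Receptor and filament genes thus went against the list's median. Of matrix proteases and their inhibitors 17 of 20 were tested, and 7 rose, 4 fell and 6 did not pass, with a median log2 change of 0.26; without WT mixed replicate 2, 2 fell. With the GC trend removed 6 rose and 6 fell, with a median of 0.0089. The membrane collagenase Mmp14 rose by 2.00 ± 0.07 (limma adjusted p = 6e-09) and the aggrecanase Adamts4 by 2.20 ± 0.12 (limma adjusted p = 6.58e-08), while Adamts5 rose by 0.70 and Mmp19 fell by 1.19 (SE 0.10). Exons of Adamts4 and Mmp19 overlap other genes.

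Smooth muscle and myofibroblast genes rose on balance. All 18 listed were tested, and 12 rose, 3 fell and 3 did not pass, with a median log2 change of 0.67; with the GC trend removed 10 rose and 4 fell, with a median of 0.70. Acta2 (ENSMUSG00000035783), the smooth muscle actin that early myotubes also make, went from 37230.3 and 37645 to 101076 and 107023, a rise of 1.47 ± 0.06 (limma adjusted p = 8.67e-09). Ccn2, a matricellular protein induced by stretch and attachment, went from 525 and 572 to 6815 and 9617 (3.88 ± 0.13, limma adjusted p = 4.11e-09). Smtn, smoothelin, and Synpo2, an actin bundler, rose by 2.12 and 1.88. The purified replicates of Acta2 lay close together and far from the mixed replicates, and those of Ccn2 were wider apart. Exons of Ccn2 and Smtn overlap other genes.

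Markers of cell types were summed to set these lists beside the makeup of the samples. Of 11 skeletal muscle markers 7 rose and 4 fell, and their summed values were 415476 and 382804 in the mixed libraries and 614436 and 601068 in the purified libraries. Of 11 fibroblast markers 10 were tested, of which 4 rose and 6 fell, with sums of 13147 and 13347 in mixed and 11180 and 12959 in purified. The fibroblast sum holds opposite moves, since Col1a2, a chain of collagen I, went from 3313 and 3179.7 to 5308 and 6315 while the 6 that fell included Postn (-5.84). Muscle markers were thus higher in sum, and fibroblast markers moved both ways within a like sum. The fibroblast proteoglycan marker Lum was at 1.2 and 2.13 in mixed and 0 in both purified libraries. All 6 smooth muscle or myofibroblast markers rose, with sums of 39992 and 40387 in mixed and 106072 and 113533 in purified. Their part in the matrix and smooth muscle results was not tested.

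Other lineages were low in both groups. The sums of the adipocyte markers were 279 and 272 in mixed and 221 and 200 in purified, those of macrophage markers 74.2 and 115 and then 128 and 154. Endothelial markers summed to 99.3 and 94.9 and then 67.0 and 89.4, and neural markers to 50.3 and 28.8 and then 42.8 and 29.8. The tested adipocyte, macrophage and neural markers did not pass. The epithelial sum went from 139 and 106 to 543 and 596. Of it the keratin Krt19 went from 65.8 and 103 to 532 and 589, and the cadherin Cdh1 read 73.0 and 2.13 in mixed and 9.30 and 6.21 in purified, so its mixed replicates differ widely. The defining keratin Krt8 was at 0 in all 4 libraries. The cartilage sum went from 64.6 and 77.8 to 391 and 396, mainly the chondrogenic factor Sox9 (from 64.6 and 64.0 to 309 and 251; 2.10 ± 0.21, limma adjusted p = 8.34e-06), whereas the cartilage proteoglycan Acan stayed under the mean of 10. The cartilage collagen Col2a1 went from 0 and 12.8 to 80.0 and 140.

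Few members of the larger lists for these lineages were tested, and their calls are to be read against 67.8% called over all genes. Of 7 adipocyte genes tested (14 listed) 1 rose and 2 fell, with a median of -0.35 (-0.97 with the GC trend removed). Of 8 cartilage and bone genes (14 listed) 3 rose and 3 fell, Spp1 among the falls (-1.20), and the median of 0.57 became -0.0020 with the GC trend removed. Of 7 endothelial genes (13 listed) 3 rose and 2 fell, with a median of 0.05 that turned to -0.07 with the GC trend removed, and with no fall left without WT mixed replicate 1, WT mixed replicate 2 or WT purified replicate 2. Flt1, a receptor for vascular growth factors, was the widest of them at 3.70 ± 0.33 (limma adjusted p = 3.56e-06). Of 3 macrophage and blood genes (15 listed) 1 rose, and of 2 epithelial genes (11 listed) 1 rose. Of 8 neural and glial genes (15 listed) 4 rose and 2 fell, and without WT purified replicate 1 or WT purified replicate 2 only 2 rose. Without WT mixed replicate 1 or WT purified replicate 1, 1 neural gene fell. Most members of these lists were thus under the mean of 10.

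The proliferation markers Mki67 and Pcna were low in both groups, and genes of replication and mitosis moved both ways. Mki67 (ENSMUSG00000031004), present in cycling cells, read 44.3 and 20.3 in the mixed libraries and 26.0 and 28.6 in the purified libraries (change -0.13 ± 0.46, limma adjusted p = 0.812), and Pcna (ENSMUSG00000027342), the DNA polymerase clamp, went from 14.4 and 20.3 to 9.30 and 7.45 (-0.95 ± 0.56, limma adjusted p = 0.154). Neither passed, and the libraries overlapped for Mki67 but not for Pcna, which passed in the fit over all 12 libraries (adjusted p = 0.0391). Of replication genes 53 of 56 were tested, and 22 rose, 10 fell and 21 did not pass, with a median log2 change of 0.38; with the GC trend removed 22 rose and 9 fell, with a median of 0.27, and 6 fell without WT mixed replicate 1 or WT purified replicate 1. Gins2 of the replicative helicase rose by 2.68 ± 0.18 (limma adjusted p = 4.27e-07) and the ribonucleotide reductase subunit Rrm1 by 1.01 ± 0.09 (limma adjusted p = 2.21e-06), while Gins3 of the same helicase fell by 1.51 (SE 0.16). The repressor E2f8 rose by 1.49. So subunits of a single helicase complex went opposite ways. Of mitosis genes 46 of 64 were tested, and 8 rose, 13 fell and 25 did not pass, with a median log2 change of -0.22 (7 rose and 10 fell, with a median of 0.0073 with the GC trend removed); without WT purified replicate 1, 5 rose, and without WT purified replicate 2, 4 rose. The mitotic factor Foxm1 rose by 2.72 ± 0.33 (limma adjusted p = 3.24e-05), and the condensin subunits Ncapd2 and Smc4 fell by 1.85 and 0.85 (SE 0.13 and 0.11). Smc4 did not pass with the GC trend removed. The phosphatase Cdc25b fell by 1.01. Exons of Gins2, E2f8, Foxm1, Ncapd2 and Cdc25b overlap other genes.

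The retinoblastoma gene Rb1 (ENSMUSG00000022105), whose product holds E2F factors in check in myotubes, read 5616 and 5649.5 in the mixed libraries and 3499.5 and 3218 in the purified libraries. The purified libraries lay lower, a change of -0.75 ± 0.07 (limma adjusted p = 3.21e-06), which was -0.05 (adjusted p = 0.484) with the GC trend removed, and its exons overlap those of Lpar6 and Rcbtb2. Kdm5a (ENSMUSG00000030180), a histone demethylase that binds the Rb1 protein, rose from 1637 and 1871 to 3033 and 2775 (0.73 ± 0.09, limma adjusted p = 2.68e-05), with exons that overlap Ccdc77. Of p53 targets and cell-cycle inhibitors 28 of 29 were tested, and 12 rose, 9 fell and 7 did not pass, with a median log2 change of 0.29 (9 rose and 9 fell, with a median of 0.23 with the GC trend removed). The kinases Plk3 and Plk2 rose by 2.60 and 1.55, while Mdm4, a p53 inhibitor, fell by 1.87 and Ccng1 by 1.11. The list thus held both directions. Replacement histones, which are made outside S phase with a poly(A) tail, rose for 5 and fell for 3 of 9 tested (11 listed). With the GC trend removed 2 rose and 1 fell, with a median of 0.02, and 2 rose without WT mixed replicate 1, WT mixed replicate 2 or WT purified replicate 2. H1fx and H2afy2 rose by 2.46 and 1.46, and H2afv and H3f3a fell by 0.65 and 0.75, that of H3f3a not past the threshold with the GC trend removed. Exons of Plk3, H1fx, H2afy2 and H3f3a overlap other genes.

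Genes that respond to serum and attachment rose on balance. Of immediate early and attachment genes 32 of 34 were tested, and 19 rose, 5 fell and 8 did not pass, with a median log2 change of 0.84; with the GC trend removed 15 rose and 6 fell, with a median of 0.43, and without WT mixed replicate 2, 3 fell. Egr1, a zinc finger factor induced within minutes of stimulation, read 108 and 98.1 in the mixed libraries and 1596 and 1688 in the purified libraries, a rise of 3.98 ± 0.12 (limma adjusted p = 2.12e-09). The growth arrest gene Gadd45a and the MAP kinase phosphatase Dusp1 rose by 1.67 ± 0.07 (limma adjusted p = 1.47e-08) and 1.37 ± 0.09 (limma adjusted p = 2.39e-07). These sit in the same direction as Ccn2, also of this list, and of the compared cells the purified alone had been trypsinised and left to recover for 24 h. The part of that handling was not tested. Exons of Gadd45a and Dusp1 overlap other genes.

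Of endoplasmic reticulum and heat stress genes 29 of 31 were tested, and 13 rose, 5 fell and 11 did not pass, with a median log2 change of 0.25 (13 rose and 5 fell, with a median of 0.39 with the GC trend removed). Rises numbered 8 without WT mixed replicate 2, and falls 3 without WT mixed replicate 1 and 9 without WT purified replicate 2. The small heat shock gene Cryab, abundant in muscle, rose from 3973 and 3674 to 16225 and 16015 (2.08 ± 0.06, limma adjusted p = 1.69e-09). Sesn2 and Atf5, induced by amino acid and mitochondrial stress, rose by 2.31 and 2.05. Their regulator Atf4 rose by 0.56, but was at -0.02 (adjusted p = 0.749) with the GC trend removed. The chaperone gene Hspa5, chosen after its values were seen, went from 8313 and 8969 to 12909.7 and 29915, so its purified replicates differed by over 2-fold. Exons of Cryab and Atf5 overlap other genes.

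In muscle protein breakdown 23 of 24 listed genes were tested, and 13 rose, 7 fell and 3 did not pass, with a median log2 change of 0.41; with the GC trend removed 9 rose and 7 fell, with a median of 0.08. The ubiquitin ligase genes that mark atrophy parted, with Trim63 up by 1.42 ± 0.08 (limma adjusted p = 1e-07) and Fbxo32 down, at -1.90 ± 0.09 (limma adjusted p = 3.37e-08). Foxo1, a factor known to drive both, rose by 1.55 ± 0.09 (limma adjusted p = 1.73e-07), and the muscle protease Capn3 fell by 1.29. A pair of ligases usually described together therefore moved in opposite directions here. Interferon-stimulated genes gave 5 rose, 8 fell and 11 did not pass, with a median log2 change of 0.09 (24 of 42 tested). With the GC trend removed 5 rose and 11 fell, with a median of -0.35. Falls numbered 3, 2 and 4 without WT mixed replicate 1, WT mixed replicate 2 and WT purified replicate 1, and rises 3 without WT purified replicate 1. The RNA sensor Ifih1 rose from 321 and 241 to 2026 and 1912 (2.82 ± 0.13, limma adjusted p = 3.12e-08), while H2-K1, a class I antigen-presenting molecule, fell by 1.72. Inflammatory mediators rose for 8 of 11 tested (25 listed) and fell for 1, with a median of 0.86, and no fall was left without WT mixed replicate 1 or WT mixed replicate 2. Lif, Csf1, Ptgs2 and Tnfaip3 rose by 1.86, 1.32, 1.17 and 0.78. Exons of Fbxo32, Capn3 and Foxo1 overlap other genes.

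Long non-coding RNAs with a poly(A) tail moved both ways. Of 13 tested (30 listed) 3 rose, 6 fell and 4 did not pass, with a median of -0.17, which turned to 0.11 with the GC trend removed (4 rose and 5 fell). Meg3, an imprinted RNA of the Dlk1-Dio3 region, rose from 15118 and 18461 to 77679 and 64761 (2.09 ± 0.10, limma adjusted p = 4.05e-08). The small nucleolar RNA hosts Snhg3 and Snhg12 fell by 1.96 and 1.42, and exons of both, as of Meg3 and Tug1, overlap other genes. Tug1 changed by -0.67 ± 0.07 (limma adjusted p = 8.67e-06), and by 0.30 (adjusted p = 0.0022) with the GC trend removed, so its direction turned.

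**Figure D5:**
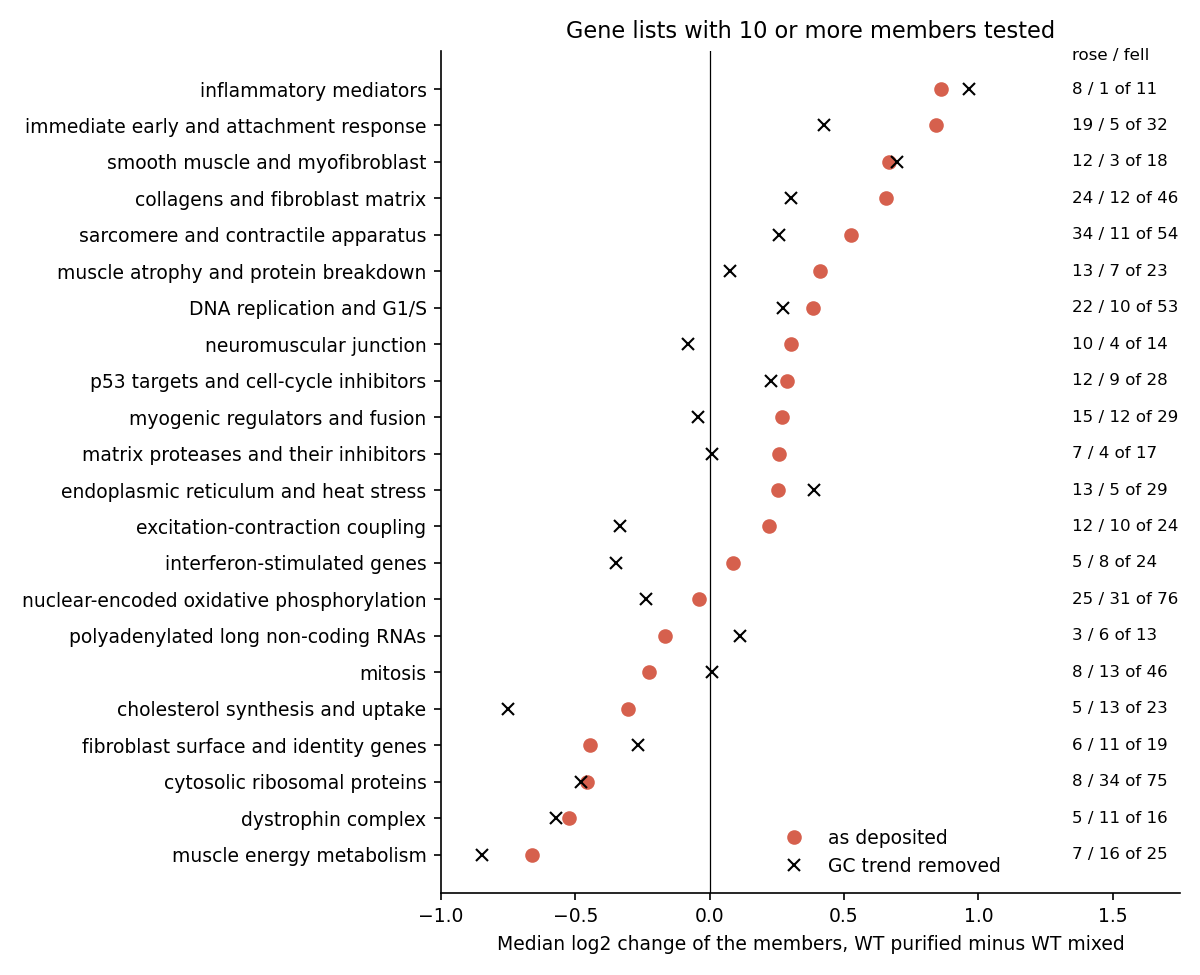
Median log2 change, purified minus mixed, of the members tested in each of the lists of messengers or long RNAs with 10 or more tested (circles), and the same with the GC trend removed (crosses), with the counts that rose and fell at the right and a line at the median of all genes. Medians run from -0.66 for muscle energy metabolism to 0.86 for inflammatory mediators, and the crosses lie across the line from the circles for regulators, coupling and junction genes, among others.

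The messengers with the largest changes were mostly near silent in a group. Dlk1 (ENSMUSG00000040856), an imprinted Notch-like protein of muscle precursors, rose from 57.4 and 165 to 12629 and 11114 (6.91 ± 0.35, limma adjusted p = 5.14e-08). The mixed replicates of Dlk1 differed by nearly 3-fold and both lay far under the purified replicates. Atp2b2, a plasma membrane calcium pump, had a purified over mixed ratio of 156 (95% counting interval 42.7 to 1295). The deiodinase gene Dio3, next to Dlk1 in the imprinted region, had a ratio of 252 (95% counting interval 44.8 to 10020.4), and Cyp1a1, the target of the aryl hydrocarbon receptor, a ratio of 303 (95% counting interval 53.8 to 12004). The carboxylesterase Ces2g had a ratio of 229 (95% counting interval 40.5 to 9081), and its relative Ces2f changed by 5.91. Pik3cg, Tubb4a and Ctxn1 were also among the 10 largest rises, at 6.29, 5.86 and 5.69. These rises thus join a calcium pump, imprinted genes and esterases, most of them at mixed values of a few reads.

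The largest fall was that of Hoxd13 (ENSMUSG00000001819), a homeobox gene of the distal limb, from 913 and 866 to 0 and 1.24. Its mixed over purified ratio was 1192 (95% counting interval 214 to 47107). Cdk8, the kinase of the Mediator complex, took 3.48% and 3.11% of the mixed reads and 0.0167% and 0.0113% of the purified reads, a change of -8.06 ± 0.14 (limma adjusted p = 9.08e-11). Gene counts do not show which stretch of Cdk8 these reads come from. Nrxn3, a synaptic adhesion gene, had a ratio of 526 (95% counting interval 179.8 to 2554), with exons that overlap another gene. The same ratio was 175 (95% counting interval 59.6 to 849.8) for the choline transporter Slc5a7 and 125 (95% counting interval 42.5 to 608) for Ip6k3, an inositol phosphate kinase of muscle. It was 166 (95% counting interval 29.4 to 6576) for the carboxypeptidase Cpa6 and 87.3 (95% counting interval 29.6 to 425) for the cartilage collagen Col10a1, whose exons overlap another gene. These genes had 1 to 3 reads in the purified libraries together. Il1rapl1, a synaptic receptor, changed by -6.58 and Erbb4, a neuregulin receptor, by -6.33. Ccdc107 changed by -6.64 and shares exons with Rmrp, which fell as well.

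The same change of library type was made in DKO cells, which lack Kdm5a and Rb1, and the core genes are set beside it with a test of the difference of the changes over 8 libraries. By that test 16.7% of 17261 genes differed. Of the 18 core genes 7 did, a count that was 4 without DKO mixed replicate 2, 12 without DKO purified replicate 2 and 14 without DKO purified replicate 1. Myh8 went from 85.2 and 85.7 to 156 and 163 in DKO (0.89), against 3.65 in WT, a difference of 2.76 ± 0.19 (limma adjusted p = 0.000612). Ckm went from 1213 and 1167 to 2306 and 2298 in DKO, higher where WT was lower (0.95 against -2.56), and the difference was -3.51 ± 0.18 (adjusted p = 0.000375). Perinatal myosin and creatine kinase therefore separated the genotypes most among these genes. Col3a1 went from 5712 and 5935 to 940.0 and 638 in DKO (-2.91 against -1.04), a difference of 1.87 ± 0.26 (adjusted p = 0.00474). Ttn went from 87456 and 101809 to 14784 and 12649.7 in DKO, a difference of 1.54 ± 0.23 (adjusted p = 0.00644), with an adjusted p of 0.0531 without DKO mixed replicate 2. Postn went from 1259 and 1205 to 119 and 91.0, a difference of -2.29 ± 0.42 (adjusted p = 0.0126), lost without WT mixed replicate 2, DKO mixed replicate 1 or DKO mixed replicate 2. Acta2 went from 15912 and 15702 to 14077 and 23431, with purified DKO replicates wide apart and a difference of 1.27 ± 0.32 (adjusted p = 0.0333). That of Acta2 was lost without any of WT mixed replicate 1 or 2, WT purified replicate 1 or 2 and DKO mixed replicate 1 or 2. Kdm5a, deleted in DKO, still had reads there, from 1319 and 1369.7 to 787 and 614. It gave a difference of 1.68 ± 0.22 (limma adjusted p = 0.0039). Rb1, also deleted, read 5309 and 5662 in the DKO mixed libraries and 2356 and 2104 in the DKO purified libraries. Its DKO mixed values lay close to those of WT mixed (5616 and 5649.5). Which part of either gene is deleted is not in the labels. For Acta1 the difference was -0.51 (adjusted p = 0.239, but 0.000486 without DKO purified replicate 1), for Myh3 0.07 (adjusted p = 0.88, but 0.00649 without DKO purified replicate 1) and for Col1a1 -0.03 (adjusted p = 0.952), none past the threshold over all 8 libraries, which does not show that the changes were alike. Larger differences that did not pass were -1.27 ± 0.58 for Myod1 (limma adjusted p = 0.177) and -1.14 ± 0.52 for Mymk (limma adjusted p = 0.172). The purified DKO replicates of both lay wide apart, at 7443 and 21379 for Myod1 and 12128 and 30894 for Mymk. Across 13386 messengers the changes in WT and DKO had a Spearman's rho of 0.64, with the library methods shared between them. The relation of the change with GC content was closer in DKO (rho 0.68 against 0.46 in WT). Messengers of 12000 exonic bases or more had a median change of -0.83 in DKO and -0.49 in WT. How much of a core gene's difference comes with GC content or length was not tested.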

How the data were processed

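RNA was sequenced in 12 libraries, of which 4 form the comparison and another 4 of DKO cells serve for the side-by-side of core genes. The authors deposited a normalised signal per gene, read counts scaled by the library's size factor. The submitters' processing notes name TopHat 1.2.0, mm9 and DESeq; the version of DESeq and the read counter were not given in those sources. Whole reads were recovered from the smallest step of each column (100% of values within 0.01) and used for depth, intervals and count tests. Symbols for 30983 of 36229 identifiers, lengths, GC content and shared exons came from GENCODE M21, whose assembly differs from mm9, so genes carry no coordinates.

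The test was limma 3.58.1 with an intensity trend in R 4.3.3, fitted to log2(value + 1) of genes whose mean was at least 10, two-sided, with Benjamini-Hochberg adjustment and a threshold of 0.05. On simulated reads in which few genes changed, it recovered 64.3% of 2-fold and 97% of 4-fold changes. Far fewer genes changed there than were called in these data, so that simulation does not gauge the calls made here. edgeR 4.0.16 and DESeq2 1.42.0 were run on the whole reads as alternatives, beside other scalings, pseudocounts of 0.5 and 8, other filters, length and GC trends removed by lowess and each library left out. Intervals cover counting error only. The comparison, its members and the lists were chosen with earlier results of these data known. Genes named are the core genes, the 10 messengers with the largest rise and fall (means of at least 100, groups not overlapping, no clone names), up to 5 RNAs without a tail in each direction, and up to 4 members with the smallest p from each list. Malat1, among the core genes of the rule, was not analysed here, and some genes that the rule names are not reported here. Genes outside the rule are marked as chosen after their values were seen. A gene whose exons overlap another in the annotation is uncertain, since reads may be counted for both.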

Additional observations from a re-analysis of the deposited data

Results flagged for a closer look

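For 7 core genes the change from mixed culture to purified myotubes differed between WT and DKO cells by limma's test of that difference over 8 libraries. Myh8 rose by 3.65 in WT and by 0.89 in DKO, a difference of 2.76. Ckm changed by -2.56 and 0.95, a difference of -3.51. Ttn changed by -1.25 and -2.79, a difference of 1.54, and Col3a1 by -1.04 and -2.91, a difference of 1.87. For Postn the changes were -5.84 and -3.55 (difference -2.29), and for Acta2 1.47 and 0.20 (difference 1.27). Kdm5a, deleted in DKO, changed by 0.73 and -0.95, a difference of 1.68. The differences of Ttn, Postn and Acta2 did not pass in every fit that left out a library, and the purified DKO replicates of Acta2 lay apart. How much of each difference comes with GC content or length was not tested.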

How the results depend on the processing

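With 2 libraries per group the design rests on limma's shared estimate of the spread. Under the scaling, pseudocount, tool and low-value alternatives, 4837 to 5765 genes rose and 4784 to 5906 fell. No gene called in the main test had the opposite call in any of these alternatives. Testing for a change above 2-fold left 1726 rises and 1680 falls, and leaving out genes that share exons left 3205 and 3293 of 9618 genes. Without the GC trend 4842 rose and 5039 fell, of which 3950 and 3895 had the same call before and 325 genes the opposite call. Of RNAs without a poly(A) tail, 96 fell and 2 rose at a mean of at least 50, and 85 fell without shared exons. Rises numbered 2 over all 12 libraries, 1 above 2-fold, 10 with the length trend removed, and 2 to 4 with a library left out. Of 153 named genes that passed, 119 kept direction and call in every alternative and 150 kept direction. Values that turned were 0.089 for Ttn with the length trend removed, 0.30 for Tug1 and -0.024 for Atf4 with the GC trend removed, 1.46 for Cdh1 without WT mixed replicate 1 and -3.10 without WT mixed replicate 2 (-0.82 with both, not past the threshold), and, for the WT minus DKO difference of mt-Rnr2, -0.85 without DKO purified replicate 2 and 1.55 without DKO purified replicate 1; the cause was not tested. The core genes that differed between WT and DKO numbered 4 to 14 with a library left out, 4 without DKO mixed replicate 2, 12 without DKO purified replicate 2 and 14 without DKO purified replicate 1. With replicate number as a block 5742 genes rose and 5737 fell, but the numbers share nothing known: replicate differences in mixed and purified correlated at 0.0035 across 16520 genes. Depth limits genes with few reads in a group, for which only bounds or wide intervals are given.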

Other observations

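Genes that mark position along the body and limb differed widely between the libraries, and were chosen as families after their values were seen. Of 38 Hox genes in the file 26 were tested, of which 10 rose and 11 fell, with a median log2 change of -0.94. The falls were of Hoxa9 to Hoxa13 and Hoxd8 to Hoxd13, toward the 5′ ends of clusters that pattern the limb, and of Hoxa4 (-0.89). Besides Hoxd13, Hoxd11 from 611 and 575 to 14.9 and 9.94 (-5.49) and Hoxd10 from 526 and 488 to 18.6 and 8.70 (-5.20). In the Hoxa cluster Hoxa11 went from 158 and 131 to 3.72 and 7.45 (-4.52), Hoxa10 from 853 and 960.4 to 35.3 and 32.3 (-4.70) and Hoxa9 changed by -2.47. The rises were of members nearer the 3′ ends. Hoxa5 changed by 1.50, Hoxa7 by 1.18, Hoxb4 by 1.30, Hoxb7 by 1.73 and Hoxb8 by 3.27, and all of these passed in limma.

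Of 39 other limb and positional factors in the file 28 were tested, of which 8 rose and 16 fell, with a median of -0.80. Among them Tbx4, a hindlimb factor, went from 214 and 258 to 7.44 and 2.48 (-5.44) and Shox2, a regulator of limb bones, from 683 and 563 to 9.30 and 13.7 (-5.66). Lmx1a rose from 9.57 and 8.53 to 177 and 165 (4.10), Lhx6 from 5.98 and 10.7 to 197 and 196 (4.45) and Emx2 from 105 and 210.0 to 1149.8 and 1206 (2.98). In DKO libraries Hoxd13 went from 139 and 102 to 1.63 and 5.23, Shox2 from 127 and 145 to 3.25 and 4.19 and Tbx4 from 38.9 and 38.3 to 26.0 and 40.8. Of genes that rose in WT, in DKO Emx2 went from 44.2 and 37.9 to 6.5 and 22.0, Hoxb4 from 59.4 and 68.0 to 16.3 and 10.5, Hoxb7 from 73.1 and 71.9 to 3.25 and 10.5, Hoxb8 from 9.47 and 11.1 to 0 and 4.19, Lmx1a from 4.21 and 1.19 to 1.63 and 4.19 and Lhx6 from 43.1 and 35.2 to 45.5 and 90.0. Emx2, Hoxb4, Hoxb7 and Hoxb8 were thus lower in both purified DKO libraries than in either mixed one, against their direction in WT, and no test of that difference is given for them. The labels give no embryo or passage for the fibroblasts of each library.

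In the imprinted Dlk1-Dio3 region Dlk1, Dio3 and Meg3 rose, Dlk1 by 6.91, Meg3 by 2.09 and Dio3 from 0 and 1.07 to 112 and 163, and Rtl1 fell from 1834 and 2483 to 1345 and 1021 (-0.86). In DKO libraries Dlk1 went from 98.4 and 79.8 to 994 and 1964 and Meg3 from 2808 and 2583 to 1851 and 3758.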
